A study of Mus musculus with 12 samples.

Results

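Gene expression was compared between cancer cells sorted from mouse lung tumours with deleted Lkb1 (3 libraries) and from KT tumours (4 libraries). These 7 libraries, of 12 in the series, were chosen by their titles, KT;Lkb1f/f and KT, and 13575 of the 30743 listed genes passed the filter on low counts and were tested. Both groups share the KT background and a mixed BL6/129 strain, and the labels give no drug, dose, age or time point that separates them. The labels do not spell out KT. The f/f in the Lkb1 titles marks a pair of floxed alleles, which Cre recombinase deletes. Alternative names in the labels mention lentiviral Cre for KT replicates 2 to 4, and no route of Cre for KT replicate 1 or for the Lkb1-deleted tumours. Whether libraries come from separate animals, or from 1 tumour each, is not stated, so p-values measure the spread between libraries, part of which may be technical. The other 5 libraries, KT tumours with the H11LSL-Cas9 allele and guides titled sgSik1 or sgSik1-3 (Sik-targeted here), entered the model for its estimate of the spread and are compared with the Lkb1-deleted libraries only at the end.

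Lkb1, the product of Stk11, is a tumour suppressor kinase that works in a complex with Strad and Mo25 proteins and switches on AMPK and a set of kinases related to it. Among these are the salt-inducible kinases (Siks), which phosphorylate class IIa histone deacetylases and the CRTC coactivators and so keep them in the cytoplasm. Unphosphorylated CRTCs enter the nucleus, where they work with the transcription factor CREB at cAMP response elements (CRE), and the Nr4a nuclear receptor genes are well-known targets of the pair. In mouse lung, adenomas and adenocarcinomas often resemble alveolar type 2 (AT2) cells, which make surfactant, and loss of Lkb1 makes such tumours more aggressive.

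Total counts were 3847760 to 8101304 in KT libraries and 6427769 to 9460177 in Lkb1-deleted libraries. KT replicates 2 and 3 stood apart by breadth: 23582 and 23747 genes had counts, against 14742 to 16247 in the other 5 libraries, and 1000 and 1066 of these were olfactory or vomeronasal receptor genes, of which the others had 19 to 58. Lkb1-deleted replicate 1 stood apart by content. Its root-mean-square difference in log2 CPM from replicates 2 and 3 was 1.63 and 1.44, against 0.993 between replicates 2 and 3 (CPM are counts per 1000000 of a library size scaled by the trimmed mean of M values). Among KT libraries the difference was 0.569 between replicates 2 and 3, which were thus unusually alike, and 0.968 to 1.06 in the other pairs. Y-linked genes summed to 70.6 and 49.95 CPM in Lkb1-deleted replicates 2 and 3 and to at most 0.424 CPM in the other 5 libraries. This difference falls along the split of replicate 1 from replicates 2 and 3, and no KT library shared the high level. Its part in the comparison with KT was not tested. The 4 most abundant transcripts held 18.4% to 48.1% of counts in KT and 44.5% to 56.4% in Lkb1-deleted libraries. Markers of epithelium were present throughout: Epcam stood at 123 to 192 CPM in KT and at 118 to 338 CPM in Lkb1-deleted libraries. Sorting had excluded cells with CD45, CD31, F4/80 or Ter119 on their surface. Of the genes for the first 3, Ptprc (CD45) stood at 1.06 to 7.89 CPM in KT and 0 to 0.103 CPM in Lkb1-deleted libraries, Emr1 (F4/80) at 0.212 to 2.81 CPM in KT and at 0 in each Lkb1-deleted library, and Pecam1 (CD31) at 1.57 to 8.70 CPM in KT and 0, 32.8 and 31.4 CPM in Lkb1-deleted replicates 1 to 3.

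Stk11 (chr10:80115767-80130679, plus strand) checks the labels. It stood at 44.7 CPM in KT replicate 1, 39.1 in replicate 2, 40.9 in replicate 3 and 31.0 in replicate 4. The Lkb1-deleted replicates 1, 2 and 3 had 9.23, 16.6 and 9.92 CPM, all below every KT library, the direction that the labels imply. The difference (log2 change -1.71, SE 0.55, adjusted p 0.160) did not pass the threshold of 0.05 on p-values from edgeR's quasi-likelihood test over 12 libraries, adjusted over all tested genes (Benjamini-Hochberg). With only the 7 libraries in the model it passed (adjusted p 0.0374), and so it did without sgSik1 replicate 1 (0.0312). Counts over the whole gene do not show which exons were deleted, and reads in exons outside the deleted part remain.

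Between Lkb1-deleted and KT tumours 158 genes passed, which is 1.16% of those tested: 83 were higher in Lkb1-deleted libraries (0.611%) and 75 lower (0.552%). At an unadjusted p under 0.05 the number was 1782. The 2 groups did not overlap in 1993 genes (14.7%), 866 higher (6.38%) and 1127 lower (8.3%) in Lkb1-deleted libraries, and 156 of the 158 called genes were among them. Lack of overlap was also a condition for naming the largest rises and falls. Where it is stated for called genes in what follows, it describes the values and adds no support. The median log2 change over all tested genes was -0.04. Of the 158 genes, 69 belong to at least 1 of 54 lists of pathways and cell types, 42 of them higher and 27 lower, and 25 of the lists held a called gene. The lists with most rises were CREB and CRTC targets, early response factors and heat shock chaperones, and those with most falls were markers of ciliated cells, macrophages and leukocytes. All 158 changes kept their direction when any 1 of the 7 libraries was left out. For the 156 genes without overlap this was largely fixed in advance by the lack of overlap. The number of calls did not hold. It was 33, 13, 13 and 91 without KT replicates 1 to 4 and 82, 68 and 79 without Lkb1-deleted replicates 1 to 3, and of the 158 genes 10 passed in all 7 of these fits and 40 in none. Libraries named after "without" were left out one at a time, here and in what follows, unless they are said to be left out together. Leaving out a Sik-targeted library, which acts on the estimates of spread and scaling but not on the libraries compared, gave 240 without sgSik1 replicate 1, 99 without sgSik1 replicate 3 and 45 without sgSik1-3 replicate 2. Without KT replicates 2 and 3 together 3 genes passed: Stc1 rose, and Ctss and Steap2 fell. Without Lkb1-deleted replicate 1, 37 of the 83 rises and 16 of the 75 falls passed.

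**Figure D1:**
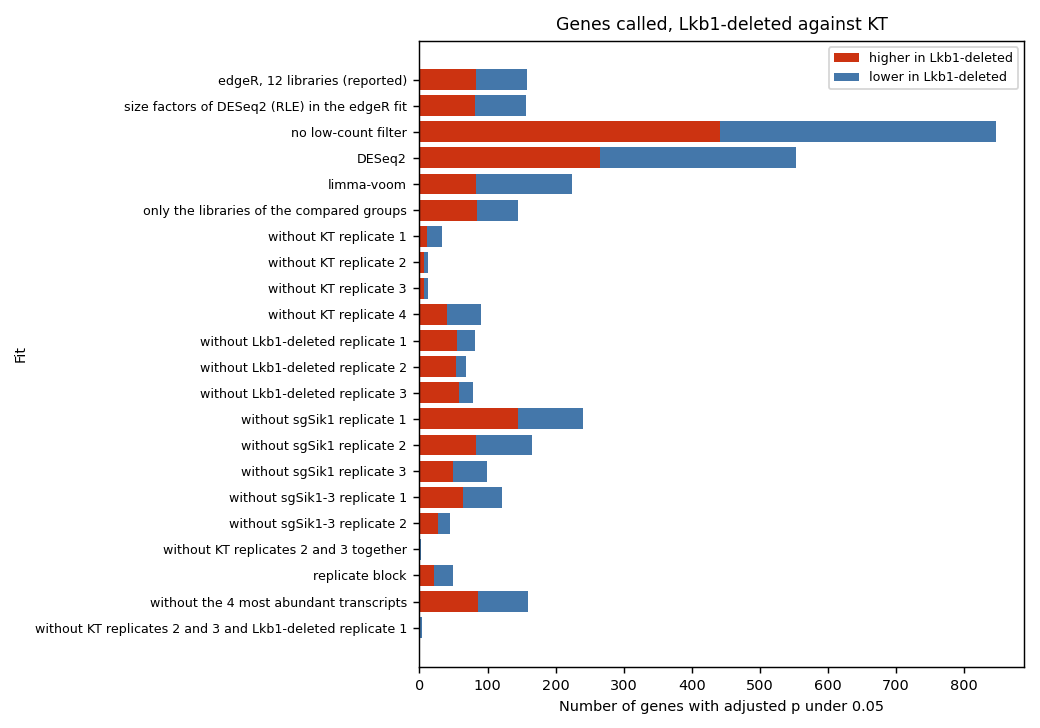
Number of genes called higher and lower (the 2 colours of each bar) in Lkb1-deleted than in KT libraries (x axis, count of genes) under each processing alternative (y axis), as stacked bars that start at 0. The 158 calls of the reported fit shrink to 13 without KT replicate 2 or 3 and to 3 without both, and grow to 553 with DESeq2 and 846 without the low-count filter.

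Of the 10 genes that passed without any single one of the 7 libraries, 5 rose and 5 fell. Stc1, Nr4a2, Ereg and Slc25a25 rose, and Steap2, Ctss, Ccl6, Slc7a8 and Chi3l3 fell, while the remaining rise was in a clone without an established gene name. The highest adjusted p over those 7 fits was 0.00320 for Stc1, 0.0133 for Nr4a2, 0.0333 for Ereg and 0.0469 for Slc25a25. Stc1 (chr14:69029289-69041401) encodes stanniocalcin-1, a secreted glycoprotein that regulates calcium and phosphate. It stood at 2.20, 4.99, 3.05 and 1.91 CPM across KT replicates 1 to 4 and at 229.9, 88.2 and 86.3 CPM in Lkb1-deleted replicates 1 to 3 (log2 change 5.43, SE 0.51, adjusted p 0.000182). All Lkb1-deleted libraries lay far above all KT libraries, with replicate 1 highest. Nr4a2 (chr2:57106830-57124003), which encodes an orphan nuclear receptor, stood at 6.92, 4.76, 7.71 and 13.2 CPM in KT and 107, 100.1 and 81.7 CPM in Lkb1-deleted libraries (log2 change 3.58, SE 0.42, adjusted p 0.00128). The 3 Lkb1-deleted values lie close together and far from the KT range. Ereg (chr5:91074617-91093649) encodes epiregulin, a ligand of the epidermal growth factor receptor. Its values were 35.9, 55.7, 36.5 and 49.2 CPM in KT and 323, 315 and 205 CPM in Lkb1-deleted libraries (log2 change 2.66, SE 0.36, adjusted p 0.00420), again without overlap. Slc25a25 (chr2:32414487-32451470), a calcium-regulated mitochondrial carrier of ATP and phosphate, had 21.6, 20.2, 17.8 and 26.7 CPM in KT and 191, 108 and 104 CPM in Lkb1-deleted libraries (log2 change 2.64, SE 0.39, adjusted p 0.00739).

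**Figure D2:**
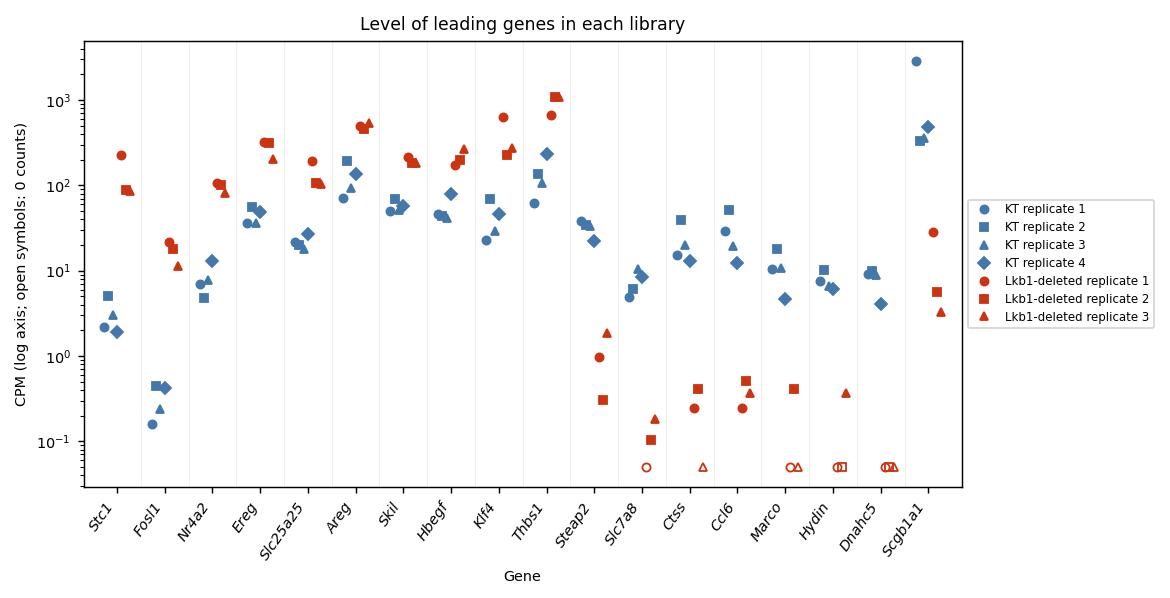
CPM of 18 genes that rose or fell (x axis), 1 point per library on a log y axis, for KT replicates 1 to 4 and Lkb1-deleted replicates 1 to 3; open symbols mark libraries with 0 counts, drawn at the lower edge. The 2 groups do not overlap in any of these genes, as in 156 of the 158 called genes. Stc1 reaches 229.9 CPM in Lkb1-deleted replicate 1 against at most 4.99 in KT libraries.

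The falls that passed without any single library were steep. Steap2 (chr5:5664829-5694649), a membrane metalloreductase that reduces iron and copper, stood at 37.9, 34.5, 33.6 and 22.5 CPM across KT replicates 1 to 4 and at 0.972, 0.309 and 1.84 CPM in Lkb1-deleted replicates 1 to 3 (log2 change -5.02, SE 0.60, adjusted p 0.00128; highest adjusted p over the 7 fits 0.0107). Every KT library was above 22 CPM and every Lkb1-deleted library below 2 CPM. Ctss (chr3:95526786-95556405), the lysosomal protease cathepsin S of antigen-presenting cells, had 15.3, 39.0, 20.1 and 12.9 CPM against 0.243, 0.411 and 0 CPM (log2 change -6.40, SE 0.72, adjusted p 0.00114; highest 0.00833). Ccl6 (chr11:83587886-83593087), a chemokine of myeloid cells, had 28.9, 52.0, 19.5 and 12.3 CPM against 0.243, 0.514 and 0.367 CPM (log2 change -6.16, SE 0.86, adjusted p 0.00511; highest 0.0279). Ctss and Ccl6 were thus near 0 in each Lkb1-deleted library and clearly present in each KT library. Slc7a8 (chr14:54722215-54781886), a transporter of neutral amino acids, fell from 4.88, 6.18, 10.6 and 8.49 CPM to 0, 0.103 and 0.184 CPM. Its 286 counts in the KT group against 2 in the Lkb1-deleted group give a level 90.5-fold lower, with a 95% binomial interval of 24.8 to 751 that covers counting error only (adjusted p 0.00739, highest 0.0464). Chi3l3 (chr3:106147554-106167564), a chitinase-like protein secreted by macrophages, ranged widely in KT libraries, 234, 953, 580.2 and 39.9 CPM, and stood at 2.31, 5.45 and 1.47 CPM in Lkb1-deleted libraries (log2 change -7.16, SE 1.13, adjusted p 0.0143; highest 0.0464). Chi3l3 has near-identical relatives among which reads may have been split. Ccl6 and Chi3l3 are in the list of macrophage markers, and Steap2, Ctss and Slc7a8 are in no list of macrophage or leukocyte markers. Those markers are described further on, and their part in the falls of these genes was not tested.

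Targets of CREB and CRTC were the list with most rises. Of 27 tested members 8 rose and 0 fell: Nr4a1, Nr4a2, Nr4a3, Fosb, Pde4b, Dusp1, Areg and Stc1, of which Nr4a1, Pde4b and Dusp1 are named here after their values were seen. The list's median log2 change was 1.45 (1.31 without Lkb1-deleted replicate 1), and 15 members were higher without overlap. Over all tested genes 0.611% were called higher and 6.38% were higher without overlap. These shares also stand beside the rises in the lists that follow. RefSeq promoter windows on GRCm38.p6 (mm10) were found for 7 of the 8. They are printed to show the CRE letters that CREB is known to bind: capitals mark TGACG on either strand (CGTCA when read from the other strand) and the full palindrome TGACGTCA, which contains both. Each sequence runs 5′ to 3′ on the gene's strand and covers only the stretch upstream of the start site that holds the motifs. Nr4a1 lies at chr15:101266601-101266822, plus strand; Nr4a2 at chr2:57124098-57124215, minus strand; Nr4a3 at chr4:48045062-48045174, plus strand; Fosb at chr7:19310089-19310117, minus strand. The others are Pde4b at chr4:102421509-102421537, plus strand, Dusp1 at chr17:26508596-26508675, minus strand and Areg at chr5:91139472-91139557, plus strand.
Nr4a1: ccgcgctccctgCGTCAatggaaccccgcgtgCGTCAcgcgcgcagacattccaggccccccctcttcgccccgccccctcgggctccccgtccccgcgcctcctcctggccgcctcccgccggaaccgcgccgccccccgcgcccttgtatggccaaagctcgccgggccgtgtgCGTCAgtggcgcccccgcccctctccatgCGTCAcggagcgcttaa
Nr4a2: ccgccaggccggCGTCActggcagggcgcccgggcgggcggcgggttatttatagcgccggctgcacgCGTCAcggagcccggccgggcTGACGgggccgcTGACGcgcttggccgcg
Nr4a3: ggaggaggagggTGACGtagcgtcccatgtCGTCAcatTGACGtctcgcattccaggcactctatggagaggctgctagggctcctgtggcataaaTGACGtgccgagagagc
Fosb: tggagttgcgggTGACGcaagcgcggggg
Pde4b: gatttggctgcaCGTCAattttctcatct
Dusp1: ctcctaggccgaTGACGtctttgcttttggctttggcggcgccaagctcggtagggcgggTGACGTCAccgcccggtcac
Areg: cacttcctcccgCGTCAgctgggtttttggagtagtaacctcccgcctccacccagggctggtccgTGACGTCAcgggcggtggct
The 3 Nr4a stretches hold 4 matches to TGACG each, Dusp1 and Areg 3 each including the palindrome, and Fosb and Pde4b 1 each. Over all 32851 windows of 250 bases upstream of a start site in the RefSeq table, 17.8% hold TGACG and 1.55% TGACGTCA on either strand. Over the 13127 windows of tested genes, the set from which the called genes come, the shares are 25.8% and 2.55%, with a window for 10321 of the 13575 genes. Windows without TGACG were left out of the printing, so every stretch shown holds a match by choice. A match describes the letters only.

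Among these members the Nr4a receptors rose together. Nr4a1 stood at 38.7, 40.6, 33.3 and 88.3 CPM across KT replicates 1 to 4 and at 225, 362 and 428 CPM in Lkb1-deleted replicates 1 to 3 (log2 change 2.76, SE 0.59, adjusted p 0.0408). Nr4a3 had 2.52, 1.71, 3.05 and 8.49 CPM against 22.1, 43.1 and 52.7 CPM (log2 change 3.36, SE 0.70, adjusted p 0.0377). In both genes every Lkb1-deleted library exceeded every KT library, as in Nr4a2. Nr4a1 lost its call without KT replicate 1, 2 or 3, or Lkb1-deleted replicate 2 or 3 (adjusted p 0.0839 to 0.141), and Nr4a3 without KT replicate 1, 2 or 3, or Lkb1-deleted replicate 2 or 3 (adjusted p 0.0763 to 0.131). Pde4b, a phosphodiesterase that degrades cAMP, had 8.497, 38.7, 25.0 and 18.5 CPM against 69.5, 100.3 and 74.0 CPM (log2 change 1.84, SE 0.41, adjusted p 0.0424), and Dusp1, a phosphatase that switches off MAP kinases, 181, 528, 341 and 541 against 2714, 1333 and 1157 CPM (log2 change 2.12, SE 0.47, adjusted p 0.0422). Both are feedback genes and neither overlapped between the groups. Pde4b lost its call without any 1 of the 7 libraries (adjusted p 0.0627 to 0.131), and Dusp1 without any 1 of the 7 libraries (adjusted p 0.0533 to 0.145). Other members of the list did not pass: Sik1, itself a CREB target, had 38.2, 48.5, 48.0 and 59.6 CPM against 162, 214 and 149 CPM (log2 change 1.85, adjusted p 0.0852), Ptgs2 (cyclooxygenase-2) a log2 change of 1.45 (adjusted p 0.0746), Crem 0.51 (adjusted p 0.778) and Per1 -0.27 (adjusted p 0.886). The number of members that rose was 2, 3, 2 and 6 without KT replicates 1 to 4, and 6, 4 and 3 without Lkb1-deleted replicates 1 to 3. It was 1 without KT replicates 2 and 3 together.

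Genes of the kinase pathway itself gave no call in the fit over 12 libraries. None of the 5 tested members of the Lkb1 complex, 18 substrate kinases or 14 Sik substrates and CREB partners passed, with median log2 changes of -0.20, 0.35 and 0.34. At an unadjusted p under 0.05 there were 1, 3 and 2 members, Stk11, Sik1 and Sik2 among them, and DESeq2 called 0, 2 and 0. Without sgSik1 replicate 1 these 3 genes passed (adjusted p 0.0312, 0.0167 and 0.0329). Sik2 had 4.72, 10.4, 8.03 and 8.28 CPM in KT and 17.4, 19.6 and 31.8 CPM in Lkb1-deleted libraries (log2 change 1.53, SE 0.38, adjusted p 0.0692) and Sik3 31.1, 26.9, 39.3 and 46.7 against 38.5, 56.7 and 53.4 CPM (log2 change 0.46, SE 0.38, adjusted p 0.669). The Sik2 values were all higher in Lkb1-deleted libraries, and those of Sik3 overlapped.

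Early response transcription factors are a list that shares Fosb with the CREB targets. Of 20 tested AP-1 and early response factors 6 rose and 0 fell, against 0.611% and 0.552% of all tested genes. The median log2 change was 1.85, and 18 were higher without overlap, against 6.38% of all tested genes. Fosl1, an AP-1 subunit induced by ERK signalling, was almost silent in KT libraries (0.157, 0.447, 0.241 and 0.424 CPM) and stood at 21.9, 17.9 and 11.2 CPM in Lkb1-deleted libraries (log2 change 5.67, SE 0.96, adjusted p 0.0179). It lost its call without KT replicate 1, 2 or 3 (adjusted p 0.0579 to 0.0829). Fosb, also an AP-1 subunit, was abundant in both groups, with 152, 450.5, 226 and 679 CPM against 2309, 2285 and 3360 CPM (log2 change 2.81, SE 0.52, adjusted p 0.0232), and lost its call without KT replicate 1, 2 or 3, or Lkb1-deleted replicate 3 (adjusted p 0.0533 to 0.106). Both genes were higher in every Lkb1-deleted library. The zinc finger factors Egr2 and Egr3 had log2 changes of 2.86 (SE 0.50, adjusted p 0.0179) and 3.35 (SE 0.73, adjusted p 0.0408), and Atf3 and Ier5, named after their values were seen, 2.14 (adjusted p 0.0408) and 1.90 (adjusted p 0.0408). Fos, Jun, Junb and Egr1, the best-known members, did not pass: their log2 changes were 1.77, 1.88, 2.17 and 2.10 (adjusted p 0.109, 0.109, 0.106 and 0.135). The number of members that rose was 0, 0, 0 and 3 without KT replicates 1 to 4, and 6, 3 and 2 without Lkb1-deleted replicates 1 to 3. It went up to 14 without sgSik1 replicate 1, a library of neither group that enters through the estimate of the spread, and then Fos, Jun and Junb passed (adjusted p 0.0426, 0.0215 and 0.0185) and Egr1 did not (0.0612). Genes of this kind are also known to respond to enzymatic digestion of tissue, a step that the labels describe in the same words for all libraries; its part in the result was not tested.

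Kruppel-like factors, zinc finger proteins that include early response members, followed the same direction: 3 of 13 tested rose and 0 fell, with a median log2 change of 0.94. Klf4, known for its role in epithelial differentiation, had 23.1, 69.8, 29.0 and 45.8 CPM in KT and 628, 228 and 273 CPM in Lkb1-deleted libraries (log2 change 3.16, SE 0.62, adjusted p 0.0322). Klf6 had 186, 356, 297 and 495 against 1085, 1267 and 946 CPM (log2 change 1.72, SE 0.37, adjusted p 0.0408) and Klf5 40.0, 69.5, 67.9 and 95.7 against 214, 159 and 197 CPM (log2 change 1.47, SE 0.33, adjusted p 0.0432). None of the 3 overlapped between the groups. Their number was 0, 0, 0 and 2 without KT replicates 1 to 4, and 0, 1 and 1 without Lkb1-deleted replicates 1 to 3.

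Genes of growth factor signalling rose in part. The EGFR list, ligands and receptors of the epidermal growth factor family, had 3 rises and 0 falls among 15 tested members (median log2 change 0.51), all of them ligands: Areg, Ereg and Hbegf. Areg (amphiregulin) had 70.5, 195, 92.7 and 135 CPM against 498, 457 and 539.9 CPM (log2 change 2.01, SE 0.36, adjusted p 0.0197), and Hbegf (heparin-binding ligand) 45.9, 43.8, 41.3 and 80.0 against 172, 200.5 and 268 CPM (log2 change 2.02, SE 0.33, adjusted p 0.0143). The 3 Areg values in Lkb1-deleted libraries lie close together and above every KT library. Areg lost its call without KT replicate 1 or 3 (adjusted p 0.0579 and 0.102), and Hbegf without KT replicate 2 or 3 (adjusted p 0.0679 and 0.0732). Among receptors, Egfr had a log2 change of -1.67 (adjusted p 0.316), Erbb2 0.45 (adjusted p 0.716) and Erbb3 0.44 (adjusted p 0.591), and none passed. Feedback genes of ERK and ETS factors had 3 rises and 0 falls among 19 (median 0.79). Dusp6, a phosphatase of ERK, had 55.1, 44.1, 34.7 and 90.0 CPM against 388, 172 and 207 CPM (log2 change 2.19, SE 0.45, adjusted p 0.0365). Spry4, an inhibitor of receptor signalling, had 15.7, 7.97, 7.79 and 12.3 against 62.7, 30.4 and 22.96 CPM (log2 change 1.83, SE 0.40, adjusted p 0.0408) and Phlda1 a log2 change of 2.03 (SE 0.45, adjusted p 0.0414). The ETS factors Etv1, Etv4 and Etv5, also outputs of ERK, did not pass, and Etv5, a factor of AT2 cells, had a log2 change of -0.86 (adjusted p 0.395). In the EGFR list the number that rose was 2, 2, 1 and 3 without KT replicates 1 to 4, and 3, 3 and 3 without Lkb1-deleted replicates 1 to 3. In the ERK list it was 0, 0, 0 and 2 without KT replicates 1 to 4, and 1, 1 and 1 without Lkb1-deleted replicates 1 to 3.

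Heat shock chaperones, which refold proteins under stress, had 5 rises and 0 falls among 21 tested members, with a median log2 change of 1.18. Dnajb1, a cochaperone of Hsp70, had 127, 54.4, 73.7 and 85.7 CPM in KT and 1489, 433 and 196 CPM in Lkb1-deleted libraries (log2 change 3.05, SE 0.53, adjusted p 0.0179), and Hspb8, a small heat shock protein, 19.7, 21.4, 20.6 and 31.8 against 91.4, 149 and 113 CPM (log2 change 2.33, SE 0.40, adjusted p 0.0177). Both were higher in every Lkb1-deleted library; Dnajb1 lost its call without KT replicate 2 or 3 (adjusted p 0.0756 and 0.0829), and Hspb8 without KT replicate 1, 2 or 3 (adjusted p 0.0579 to 0.0829). Hspa1a had a log2 change of 2.19 (SE 0.48, adjusted p 0.0408), but is uncertain because Hspa1b, nearly identical in sequence, can take its reads and did not pass (2.13, adjusted p 0.115). The groups overlapped in Hspa1a (101 to 208 CPM in KT and 964, 690.5 and 191 CPM in Lkb1-deleted libraries), and it lost its call without any 1 KT library, or Lkb1-deleted replicate 1 or 2 (adjusted p 0.0976 to 0.140). The others, Hsp90aa1 (2.07, adjusted p 0.0484) and the cochaperone Bag3 (2.26, adjusted p 0.0497), named after their values were seen, were just under the threshold. The number that rose was 1, 0, 0 and 2 without KT replicates 1 to 4, and 2, 2 and 4 without Lkb1-deleted replicates 1 to 3. Among 18 genes of the unfolded protein response, a separate stress response of the endoplasmic reticulum, none passed (median 0.48; 5 at an unadjusted p under 0.05, 3 by DESeq2 and 1 by limma-voom).

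Inflammatory signalling showed single genes rather than a block. Nfkbia and Tnfaip3, both inhibitors of NF-kB that NF-kB itself induces, rose among 16 tested feedback genes (log2 changes 1.56 and 1.72, adjusted p 0.0468 and 0.0468), and none fell (median 0.57). Nfkbia lost its call without any 1 of the 7 libraries (adjusted p 0.0568 to 0.193), and Tnfaip3 without any 1 KT library, or Lkb1-deleted replicate 1 or 2 (adjusted p 0.102 to 0.151). Il6, encoding the cytokine interleukin-6, was the only one that passed of 24 tested members of a list of chemokines and cytokines, with 0.472, 1.56, 1.45 and 1.49 CPM in KT and 5.35, 33.7 and 11.9 CPM in Lkb1-deleted libraries (log2 change 3.74, SE 0.72, adjusted p 0.0290). It lost its call without any 1 KT library, or Lkb1-deleted replicate 2 (adjusted p 0.0566 to 0.106). The median of that list was 0.04. The list leaves out Ccl6, described with the falls, and Ccl9, also a chemokine of myeloid cells and named after its values were seen, which fell as well (log2 change -5.57, SE 1.22, adjusted p 0.0408).

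Several rises were in genes of cell contact, secretion and ion transport. Selp, P-selectin, an adhesion molecule best known from platelets and endothelium, had 0.157, 0.298, 2.17 and 0.212 CPM in KT and 20.3, 40.3 and 10.3 CPM in Lkb1-deleted libraries (log2 change 4.87, SE 0.84, adjusted p 0.0179) and lost its call without KT replicate 1 or 2 (adjusted p 0.0579 and 0.0741). Summed endothelial markers were lowest in Lkb1-deleted replicate 1, at 14.1 CPM, and highest in replicate 2, at 368 CPM, and their part in the Selp result was not tested. Cldn2, a claudin that forms cation pores in tight junctions, had 18.1, 13.2, 12.4 and 21.0 against 676, 22.4 and 50.7 CPM (log2 change 3.95, SE 0.85, adjusted p 0.0408). Most of its rise was in replicate 1, and without that library it was smaller (log2 change 1.18, adjusted p 0.278); it lost its call without any 1 KT library, or Lkb1-deleted replicate 1 (adjusted p 0.0784 to 0.278). Cacna1h, a T-type calcium channel, had 0.472, 0.745, 0.642 and 0 against 7.90, 2.06 and 14.3 CPM (log2 change 3.92, SE 0.82, adjusted p 0.0377), and Sfn, 14-3-3 sigma, an epithelial adaptor, 8.497, 4.24, 9.63 and 7.64 against 234, 28.2 and 78.8 CPM (log2 change 3.92, SE 0.76, adjusted p 0.0320). None of these 4 overlapped between groups, which was a condition for naming them among the largest rises. Each was the only called member of its list: 1 of 23 adhesion molecules, 1 of 19 claudins and junction proteins, 1 of 46 voltage-gated channels and 1 of 19 keratins and squamous genes. Over all tested genes 0.611% were called higher, and single calls are not read as a result about these lists. Cacna1h lost its call without any 1 KT library, or Lkb1-deleted replicate 1 or 3 (adjusted p 0.0557 to 0.115), and Sfn without any 1 KT library, or Lkb1-deleted replicate 1 (adjusted p 0.0659 to 0.116). Ptprn, a membrane protein of dense-core secretory granules, stood at 8.97, 26.7, 21.5 and 30.4 CPM in KT and 237, 209.9 and 192 CPM in Lkb1-deleted libraries (log2 change 3.28, SE 0.57, adjusted p 0.0179; it lost its call without KT replicate 1, 2 or 3 (adjusted p 0.0579 to 0.0829)). Pgm5, a phosphoglucomutase relative found at adherens junctions, had 1.89, 1.86, 1.45 and 6.37 against 82.0, 21.7 and 33.6 CPM (log2 change 4.05, SE 0.66, adjusted p 0.0145; it lost its call without KT replicate 1, 2 or 3 (adjusted p 0.0573 to 0.0726)). Fam46c, a poly(A) polymerase, had 1.73, 1.27, 1.36 and 1.49 against 22.0, 10.3 and 7.90 CPM (log2 change 3.20, SE 0.51, adjusted p 0.0143; it lost its call without KT replicate 2 or 3 (adjusted p 0.0636 and 0.0679)). In these 3 genes each Lkb1-deleted library exceeded each KT library, again a condition for naming them. Thbs1, thrombospondin-1, a matrix glycoprotein that activates TGF-beta, had 62.1, 135, 107 and 234 against 669, 1086 and 1089 CPM (log2 change 2.81, SE 0.63, adjusted p 0.0444) and lost its call without any 1 of the 7 libraries (adjusted p 0.0537 to 0.152). Skil, an inhibitor of SMAD signalling, had 50.4, 69.2, 51.8 and 57.3 against 215, 182 and 183 CPM (log2 change 1.76, SE 0.29, adjusted p 0.0143) and lost its call without KT replicate 3 (adjusted p 0.0732). They were the 2 of 26 TGF-beta and BMP genes that passed (median 0.34). Efnb2 and Ephb3, an ephrin and a receptor of guidance signalling, were the 2 of 15 that rose in their list (log2 changes 1.72 and 1.95, adjusted p 0.0336 and 0.0437; median 0.83). Efnb2 lost its call without any 1 KT library, or Lkb1-deleted replicate 1 or 2 (adjusted p 0.0559 to 0.116), and Ephb3 without any 1 of the 7 libraries (adjusted p 0.0710 to 0.152).

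Solute carriers, the largest list with 232 tested members, had 3 rises and 2 falls and a median log2 change of -0.10. Over all tested genes 0.611% rose and 0.552% fell, so these calls are given gene by gene and not as a result about the list. Beside Slc25a25, Slc38a4 and Slc38a2, both sodium-coupled transporters of neutral amino acids, rose. Slc38a4 had 5.51, 8.19, 4.58 and 6.15 CPM in KT and 19.6, 132 and 47.2 CPM in Lkb1-deleted libraries (log2 change 3.43, SE 0.72, adjusted p 0.0377), and Slc38a2 224, 227, 159.6 and 321 against 575, 632 and 620 CPM (log2 change 1.39, SE 0.31, adjusted p 0.0437). Both lay above KT in every Lkb1-deleted library. Slc38a4 lost its call without any 1 KT library, or Lkb1-deleted replicate 2 or 3 (adjusted p 0.0511 to 0.131), and Slc38a2 without KT replicate 1, 2 or 3, or any 1 Lkb1-deleted library (adjusted p 0.0797 to 0.167). The falls were Slc7a8 and the zinc transporter Slc39a2 (log2 change -4.16, adjusted p 0.0468; named after its values were seen). Glycolysis had 1 rise among 32 members, Pfkp, the platelet-type phosphofructokinase (log2 change 1.78, SE 0.41, adjusted p 0.0477), which lost its call without any 1 of the 7 libraries (adjusted p 0.0617 to 0.174). The median of that list was 0.60, and 0.14 without Lkb1-deleted replicate 1.

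The list with most falls held genes of motile cilia, the axonemal proteins of multiciliated airway cells. Of 39 tested ciliated cell markers 10 fell and 0 rose. The median log2 change was -3.35, unchanged when members with 0 counts were set to their bounds, and 26 were lower without overlap. Over all tested genes 0.552% were called lower and 8.3% were lower without overlap. A pair, named after their values were seen, was higher without overlap and did not pass: Tubb4b, a tubulin that is not specific to cilia, with 46.9 to 109.7 CPM in KT and 227, 131 and 144 CPM in Lkb1-deleted libraries, and Rfx2. The summed level of the markers overlapped, at 229 to 281 CPM in KT and 257, 175 and 206 CPM in Lkb1-deleted replicates 1 to 3. Tubb4b is part of these sums. It made most of the sum in each Lkb1-deleted library and the smaller part in each KT library, so the overlap does not describe the other markers. In bulk RNA fewer cells of a type and less RNA per cell cannot be told apart. The dynein heavy chain Dnahc5 stood at 9.13, 9.83, 8.83 and 4.03 CPM in KT libraries and had no counts in any Lkb1-deleted library: its 319 counts against 0 make it at least 67.3-fold lower, taking 3 counts over the group as the floor (adjusted p 0.0220). Hydin, a central-pair protein, went from 7.55, 10.1, 6.66 and 6.15 CPM to 0, 0 and 0.367 CPM, with 296 against 2 counts a 93.7-fold difference with a 95% interval of 25.7 to 777 (adjusted p 0.0177). In each KT library both genes were detected. Spag17, also of the central pair, and Spef2, a flagellar protein, had no counts in Lkb1-deleted libraries and were at least 40.1-fold and 37.8-fold lower (adjusted p 0.0290 and 0.0224), and Wdr52 and Dnahc8 had 1 and 2 counts (adjusted p 0.0184 and 0.0197). Dnahc5 lost its call without KT replicate 1, 2 or 3, or Lkb1-deleted replicate 2 (adjusted p 0.0563 to 0.0829), and Hydin without KT replicate 2 or 3 (adjusted p 0.0636 and 0.0679). Foxj1, the factor that drives multiciliated cell fate, did not pass (log2 change -1.54, adjusted p 0.473). The number that fell was 6, 0, 0 and 8 without KT replicates 1 to 4, and 4, 2 and 4 without Lkb1-deleted replicates 1 to 3. Spata18, a mitochondrial quality control protein, was also at 0 in Lkb1-deleted libraries, at least 35.2-fold lower, and lost its call without any 1 of the 7 libraries (adjusted p 0.05 to 0.114).

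Club cells, the secretory cells of the airway, had 2 called markers among 16, both lower, and a median of -1.95, also at the bounds. Scgb1a1, their secretoglobin, ranged widely in KT libraries, 2871, 334, 362 and 489 CPM, and stood at 28.4, 5.66 and 3.31 CPM in Lkb1-deleted libraries (log2 change -6.34, SE 1.16, adjusted p 0.0273). It lost its call without KT replicate 2 or 3, or Lkb1-deleted replicate 2 or 3 (adjusted p 0.0507 to 0.0675). Ces1d, a carboxylesterase with close paralogs, had 114, 107, 95.5 and 57.9 against 16.9, 15.5 and 12.3 CPM (log2 change -2.65, SE 0.57, adjusted p 0.0408) and lost its call without KT replicate 1, 2 or 3, or any 1 Lkb1-deleted library (adjusted p 0.0853 to 0.124). Both were lower in every Lkb1-deleted library. Scgb3a2, another secretoglobin, had 286 counts in KT and 0 in Lkb1-deleted libraries and did not pass (adjusted p 0.0714). Summed club markers were 1200 to 4930 CPM in KT and 554 to 907 CPM in Lkb1-deleted libraries, and 4 of them had no counts in Lkb1-deleted libraries. Their part in the falls of ciliary and secretory genes was not tested.

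Of 22 tested macrophage markers 6 fell and 0 rose, with a median of -3.63, also at the bounds, and 13 lower without overlap. Over all tested genes 0.552% were called lower and 8.3% were lower without overlap. Marco, a scavenger receptor of alveolar macrophages, had 10.5, 17.7, 10.8 and 4.67 CPM in KT and 0, 0.411 and 0 CPM in Lkb1-deleted libraries (log2 change -5.97, SE 0.94, adjusted p 0.0143; it lost its call without KT replicate 2 (adjusted p 0.0627)). Atp6v0d2, a V-ATPase subunit of macrophages and osteoclasts, had 16.2, 62.1, 22.96 and 3.61 against 0, 0.309 and 0.551 CPM (log2 change -6.56, SE 1.12, adjusted p 0.0177; it lost its call without KT replicate 2 or 3, or Lkb1-deleted replicate 2 (adjusted p 0.0507 to 0.0627)). Mmp12, macrophage elastase, fell from 260 counts to 1, a 165-fold difference with a 95% interval of 29.3 to 6527 (adjusted p 0.0377), and lost its call without KT replicate 2 or 3, or any 1 Lkb1-deleted library (adjusted p 0.0752 to 0.144). In Chi3l3 and Atp6v0d2 the KT libraries differ widely, with replicate 2 highest and replicate 4 lowest. Over all 32 macrophage markers the summed level was 138 to 1360 CPM in KT and 29.6 to 57.7 CPM in Lkb1-deleted libraries, and 10 of the 32 had no counts in Lkb1-deleted libraries against 0 in KT. The number that fell was 6, 2, 3 and 7 without KT replicates 1 to 4, and 6, 5 and 4 without Lkb1-deleted replicates 1 to 3, and 0 without KT replicates 2 and 3 together. Markers of leukocytes in general had 5 falls among 12 (median -3.0, also at the bounds). Tyrobp, an adaptor of myeloid receptors, went from 7.71, 6.11, 2.17 and 1.49 CPM to 0 in each Lkb1-deleted library, at least 34.8-fold lower (adjusted p 0.0408). Ptprc fell from 206 counts to 1, 130.4-fold with an interval of 23.1 to 5176 (adjusted p 0.0408). Tyrobp lost its call without KT replicate 1, 2 or 3, or any 1 Lkb1-deleted library (adjusted p 0.0710 to 0.131), and Ptprc without KT replicate 1, 2 or 3, or any 1 Lkb1-deleted library (adjusted p 0.0664 to 0.133). Cytip, Itgb2 and Fcer1g also fell (adjusted p 0.0186, 0.0366 and 0.0377). Their number was 0, 0, 0 and 5 without KT replicates 1 to 4, and 0, 2 and 1 without Lkb1-deleted replicates 1 to 3. The summed level of all leukocyte markers was 213 to 254 CPM in KT and 319, 112 and 88.7 CPM in Lkb1-deleted replicates 1 to 3, of which Cd53 alone, a tetraspanin of leukocytes, made 144 CPM in replicate 1. Lcp1 made the largest part of the sum in every library, with 127 to 210 CPM in KT and 165, 94.5 and 77 CPM in Lkb1-deleted replicates 1 to 3. Since the sort was set to remove CD45 and F4/80 cells, these values give the level of what remained in each library, and their part in the falls of Ctss, Ccl6, Chi3l3 and other myeloid genes was not tested.

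Outside these lists, Cwh43, a protein of membrane anchor synthesis, had 2.67, 6.03, 7.71 and 1.27 CPM in KT and no counts in Lkb1-deleted libraries, at least 42.2-fold lower (adjusted p 0.0290), and lost its call without KT replicate 1, 2 or 3, or any 1 Lkb1-deleted library (adjusted p 0.0533 to 0.0848). Nov, a secreted matricellular protein, fell from 430 counts to 2 (136-fold with an interval of 37.5 to 1128, adjusted p 0.0279) and lost its call without KT replicate 2 or 3, or Lkb1-deleted replicate 2 or 3 (adjusted p 0.0507 to 0.124). Serpina10, an inhibitor of coagulation proteases, had 58 counts in KT libraries and 0 in Lkb1-deleted libraries, at least 12.2-fold lower (adjusted p 0.0497). Among falls in which the 3 Lkb1-deleted libraries lay closest together were Prdx6, a peroxiredoxin abundant in lung, with 219, 177, 128 and 137 CPM against 68.2, 60.0 and 69.6 CPM (log2 change -1.33, SE 0.30, adjusted p 0.0452), and Sult1a1, a sulfotransferase, with 12.4, 12.3, 9.15 and 6.58 against 1.22, 1.34 and 2.57 CPM (log2 change -2.58, SE 0.56, adjusted p 0.0408). Neither overlapped, and all 3 genes lost their calls without any 1 of the 7 libraries (adjusted p up to 0.137 for Serpina10, 0.138 for Prdx6 and 0.131 for Sult1a1). Among such rises were Brd2, a chromatin reader (log2 change 1.54, SE 0.31, adjusted p 0.0354), Tob1, an antiproliferative protein (log2 change 2.32, SE 0.51, adjusted p 0.0408), and Rasgef1b, an exchange factor of Ras-like proteins (log2 change 1.73, SE 0.31, adjusted p 0.0197). Brd2 and Tob1 lost their calls without any 1 of the 7 libraries (adjusted p up to 0.122 and 0.145), and Rasgef1b without KT replicate 1, 2 or 3 (adjusted p 0.0641 to 0.102).

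The identity of the tumour cells, as far as lists show it, gave no calls. None of 29 AT2 markers, 19 AT1 markers, 32 lung lineage transcription factors or 20 epithelial markers passed, with medians of -0.60, -0.81, 0.27 and 0.31. At an unadjusted p under 0.05 there were 5, 4, 8 and 3 members, and DESeq2 called 1, 2, 1 and 0 and limma-voom 0, 2, 0 and 0. In the same order 4, 4, 2 and 0 members were lower without overlap, against 8.3% of all tested genes. Higher without overlap were 0, 1, 3 and 4 members, against 6.38% of all tested genes. Of the 29 AT2 markers 6 had a positive log2 change. Nkx2-1, the lineage factor of lung epithelium, had 172, 252, 242 and 233 CPM in KT and 180.4, 173 and 332 CPM in Lkb1-deleted libraries. Surfactant protein Sftpb had 5692, 4388, 3937 and 7399 against 10100, 6166 and 6859 CPM. In both genes the groups overlapped, and the same held for Sftpc, an AT2 gene named after its values were seen, with 7726 to 55540 CPM in KT and 537, 19260 and 18750 CPM in Lkb1-deleted libraries. Its lowest value of the 7 was in Lkb1-deleted replicate 1. The AT2 markers Mlc1 and S100g were lower without overlap. Mlc1 had 21.2 to 93 CPM in KT and 6.07, 18.8 and 19.1 CPM in Lkb1-deleted replicates 1 to 3. S100g had 32.8 to 164 CPM in KT and 5.35, 25.4 and 26.8 CPM in Lkb1-deleted replicates 1 to 3. Summed AT2 markers were 36300 to 116000 CPM in KT and 23100, 53100 and 55300 CPM in Lkb1-deleted replicates 1 to 3. Endothelial markers had 0 calls among 18 (median 1.14; 1 at an unadjusted p under 0.05, 0 by DESeq2) and sums of 65.1 to 101 CPM in KT against 14.1, 368 and 141 CPM. Without Lkb1-deleted replicate 1 their median was 1.69 and Cdh5 and Pecam1, both of endothelial junctions, rose (adjusted p 0.0336 and 0.0349). Fibroblast markers had 0 calls among 18 (median -0.73; 2 at an unadjusted p under 0.05, 1 by DESeq2) and sums of 535 to 1660 against 419, 2040 and 1100 CPM. No call was made in lists of cell cycle (32 tested, median 0.11), lipid and sterol synthesis (25, -0.11), WNT (25, -0.10), Notch (14, 0.78), integrins (18, 0.39, without the leukocyte integrins Itgax and Itgb2, which fell and are counted with macrophage and leukocyte markers; Itgax was named after its values were seen), MHC class II (8, -0.81) or tumour progression (16, 0.05), in which 4, 2, 3, 4, 7, 0 and 7 members had an unadjusted p under 0.05, DESeq2 called 0, 1, 1, 0, 1, 0 and 1 and limma-voom 1 in all, a WNT gene. A missed threshold does not show that these genes did not differ.

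**Figure D3:**
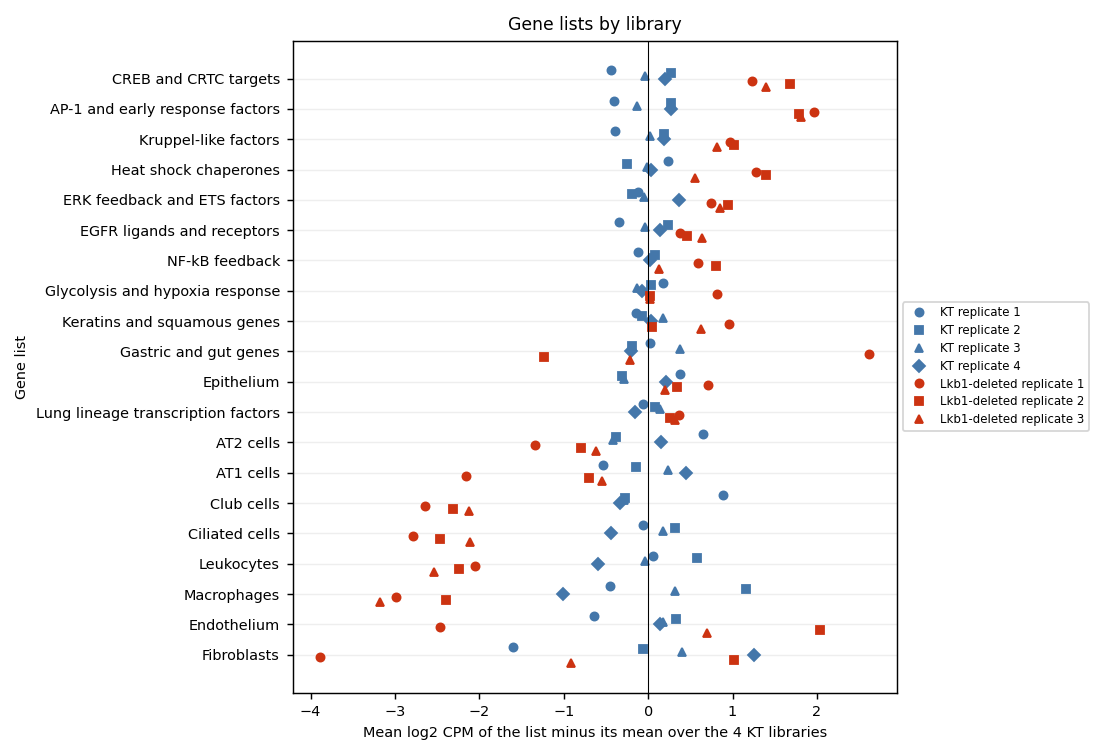
Mean log2 CPM of the tested members of 20 gene lists (rows) in each of the 7 libraries, minus the mean of the 4 KT libraries (x axis, log2 units), 1 point per library. CREB and CRTC targets, early response factors and heat shock chaperones lie above 0 in all 3 Lkb1-deleted libraries, ciliated, macrophage and leukocyte markers below 0, and replicate 1 lies apart from the other two in the gastric and gut list.

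Lkb1-deleted replicate 1 held many genes at levels far from replicates 2 and 3. It lay more than 8-fold above both of them, and above every KT library, in 86 genes, and as far below in 206 genes. For replicate 2 the same counts were 9 and 4, and for replicate 3 they were 0 and 4. These genes are a description of 1 library and have no test. The widest gaps upward were in mast cell proteases, which sit in granules of mast cells: Mcpt1 had 4021 CPM in replicate 1 and 2.16 and 8.45 CPM in replicates 2 and 3, and Mcpt2 992, 0.206 and 1.10 CPM in replicates 1 to 3. Reads may be split among members of this protease family. In KT libraries Mcpt1 stood at 2.36 to 14.8 CPM and Mcpt2 at 0 to 2.12 CPM. The summed mast cell and basophil markers were 5260 CPM in replicate 1 and at most 150 CPM in the other Lkb1-deleted and the KT libraries. In replicate 1 nearly all of this sum was Mcpt1, Mcpt2 and Mcpt8 (214 CPM). Tpsab1 (30.5 CPM) and Mcpt4 (2.07 CPM) were also highest there. Other members of the list were not. Cpa3, Fcer1a and Ms4a2 stood at 0 CPM in replicate 1, Kit at 0.972 CPM, and Hdc at 4.01 CPM, below its 14.8 to 145 CPM in KT libraries. Summed markers were high in the Sik-targeted libraries too, from 919 to 2983 CPM. A second set was gastric and gut genes, beside the airway mucin Muc5b. Muc5b had 10990, 16.1 and 30.5 CPM in Lkb1-deleted replicates 1 to 3 against 24.1 to 186 CPM in KT libraries. Hnf4a, a factor of gut and liver epithelium, had 194, 3.81 and 1.65 against 2.38 to 10.4 CPM. Tff1, a gastric trefoil peptide, had 447, 0.514 and 3.67 against 0.315 to 1.91 CPM. None of 22 tested gastric and gut genes passed (10 at an unadjusted p under 0.05, 7 by DESeq2, 0 by limma-voom), and their median log2 change of 1.96 turned to -1.18 without replicate 1. Summed over the list they were 16650 CPM in replicate 1, 1736 and 2649 CPM in replicates 2 and 3, 1379 to 2675 CPM in KT libraries and 2897 to 15280 CPM in Sik-targeted libraries, so that replicate 1 stands apart from its own group and from KT but not from all libraries of the series. The enzyme Alpi of the gut brush border (147, 0.103 and 0.367 CPM) and the coagulation factor F5 (331, 0.514 and 1.29 CPM) showed the same gap. Downward gaps were in Pecam1, in Cbr2, a carbonyl reductase of lung (2.06, 190 and 308 CPM, KT 256 to 941 CPM), in Gli3, a factor of hedgehog signalling (0, 19.6 and 22.0 CPM, KT 4.88 to 15.5 CPM), and in the matrix protein Prelp (0.243, 149 and 32.3 CPM, KT 5.04 to 139 CPM). Among the 83 called rises replicate 1 was the highest Lkb1-deleted library in 45 and the lowest in 24, and among the 75 falls the lowest in 20 and the highest in 11.

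**Figure D4:**
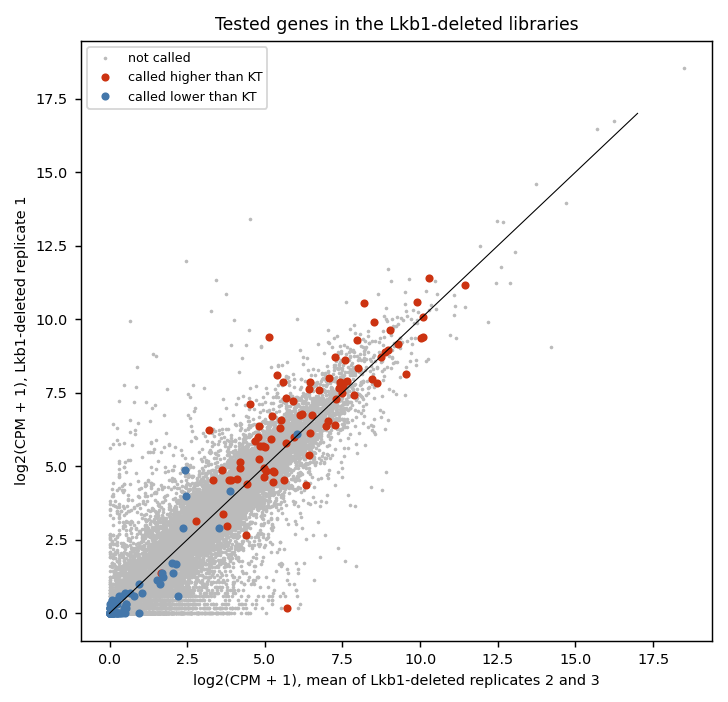
log2(CPM + 1) of each tested gene in Lkb1-deleted replicate 1 (y axis) against the mean of replicates 2 and 3 (x axis), with the 158 genes called against KT coloured by direction. Genes off the diagonal line, which marks equal levels, include Mcpt1, Muc5b and Tff1 above it and Pecam1 and Cbr2 below it, while called genes lie on both sides.

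**Figure D5:**
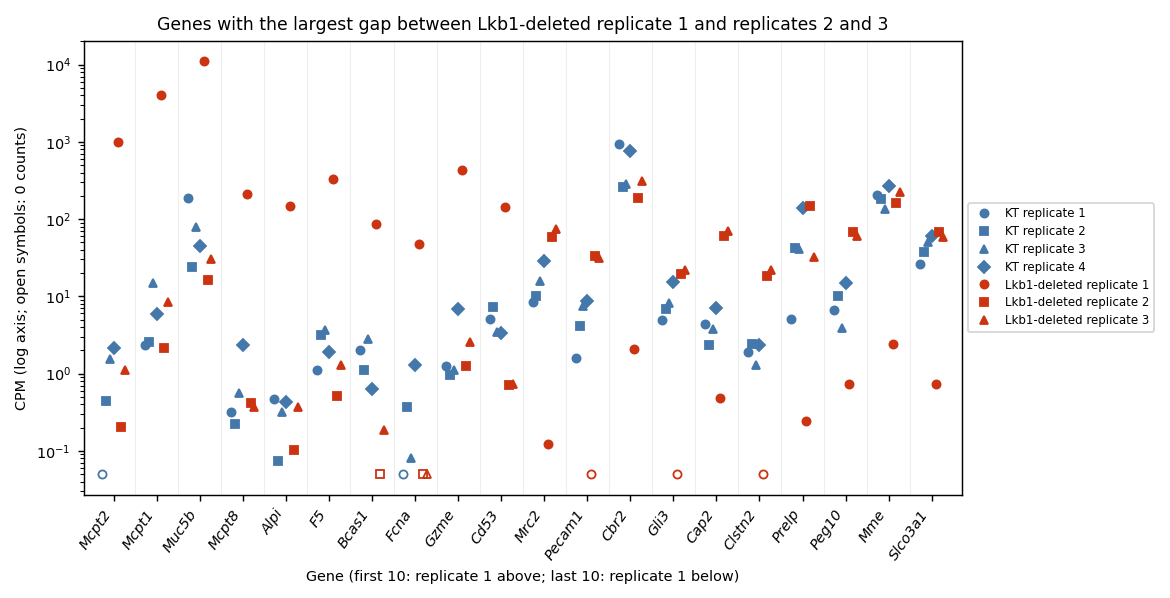
CPM (log y axis) of the 20 genes (x axis) with the widest gap between Lkb1-deleted replicate 1 and the other 2 Lkb1-deleted libraries, 1 point per library; open symbols mark 0 counts, drawn at the lower edge. In the first 10 genes replicate 1 lies above every other library and in the last 10 below.

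Set against the 5 Sik-targeted libraries, in which kinases downstream of Lkb1 were targeted, Lkb1-deleted libraries differed in 30 genes, 0.221% of those tested: 14 higher and 16 lower, and 1723 at an unadjusted p under 0.05. This comparison shares its Lkb1-deleted libraries with the one against KT. Steap2 was lower in Lkb1-deleted libraries here too, with 6.54 to 24.4 CPM in Sik-targeted libraries (log2 change -4.05, SE 0.57, adjusted p 0.00805), and so was Cwh43, with 0.996 to 13.5 CPM against 0 (adjusted p 0.0296). Thbs1 was higher (20.1 to 222 CPM in Sik-targeted libraries, log2 change 3.18, SE 0.59, adjusted p 0.0374). For the CREB targets the Sik-targeted libraries gave, beside the values above, 177 to 426 CPM of Stc1 (log2 change of Lkb1-deleted minus Sik-targeted -1.17, adjusted p 0.278), 46.3 to 119 CPM of Nr4a2 (0.57, adjusted p 0.551) and 437 to 702 CPM of Areg (-0.19, adjusted p 0.866), and for Ereg 170.2 to 428 CPM (-0.15, adjusted p 0.898). None of these 4 passed. With only the compared groups in the model 0 genes passed (1270 at an unadjusted p under 0.05, edgeR), which ends the calls of Steap2, Cwh43 and Thbs1. The count of 30 also depended on single libraries: it was 740 without Lkb1-deleted replicate 1, 7 and 2 without replicates 2 and 3, and 13, 270, 12, 12 and 9 without sgSik1 replicates 1 to 3 and sgSik1-3 replicates 1 and 2, left out in turn.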

How the data were processed

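The deposited table holds read counts per gene symbol for 12 libraries of sorted mouse lung tumour cells, as made by the authors, and each column name equals 1 sample title. Per the labels' protocols, tumours were digested for 30 min at 37 C, cells were sorted, RNA of 25000 to 60000 cells was amplified from 30 ng and read pairs of 100 bases were sequenced. Amplification adds spread between libraries, and no molecule tags mark copies. Per the submitters' processing notes STAR 2.4.2a, HTSeq and mm10 were used. Annotation and strandedness were not given in the sources used here, so reads of overlapping or antisense genes and of near-identical copies may be shared.

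Genes were tested on the counts with edgeR 4.0.16 (R 4.3.3): filterByExpr by group, TMM scaling, a robust quasi-likelihood fit of all 12 libraries in 3 genotype groups, a two-sided F test and Benjamini-Hochberg adjustment over 13575 genes with a threshold of 0.05. The common dispersion was 0.262. The scripts were tested on simulated data. A group with 0 counts was set to a floor of 3 counts. DESeq2 1.42.0, limma-voom (limma 3.58.1), other scaling and filters and left-out libraries were the alternatives. No 2 libraries of a group were duplicates (lowest chi-square per degree of freedom 15.1).

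The genes compared, the lists and the rule for named genes were chosen with earlier results of these data known. The rule names Stk11 and the Siks, the 15 largest rises and falls among called genes with a mean of at least 2 CPM and no overlap, up to 15 called genes that pass without any single library, from each list the 3 lowest p, the 10 widest gaps of Lkb1-deleted replicate 1 in each direction, and the 10 called genes per direction whose Lkb1-deleted libraries lie closest. Predicted genes, clones, Y-linked and receptor genes were counted but not named. Further list members printed with their values, such as Fos or Egfr, and Epcam, Sftpb, Sftpc and Nkx2-1 were chosen after values were seen. Coordinates are those of whole genes in RefSeq, GRCm38.p6.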

Additional observations from a re-analysis of the deposited data

Results flagged for a closer look

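In 6 of the 120 genes checked, 1 of the 4 KT libraries lay far from the other 3 by Dixon's criterion. Chance meets it in about 1 in 20 groups, which is also 6 of these genes. Dnahc5, a ciliary dynein, stood at 4.03 CPM in KT replicate 4 and at 8.83 to 9.83 CPM in the other KT libraries. Hbegf stood at 80.0 CPM in KT replicate 4 against 41.3 to 45.9 CPM, and Pgm5 at 6.37 CPM in the same library against 1.45 to 1.89 CPM. Il6 had 0.472 CPM in KT replicate 1 against 1.45 to 1.56 CPM, and Selp 2.17 CPM in KT replicate 3 against 0.157 to 0.298 CPM. Plk2, a p53 target, stood at 17.2 CPM in KT replicate 1 against 37.6 to 43.4 CPM. In Dnahc5 the library that stands apart lies nearer to the Lkb1-deleted libraries, and so it does in Hbegf, Pgm5 and Selp, while in Il6 and Plk2 it lies farther from them. The group of 3 Lkb1-deleted libraries was not checked by this criterion.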

How the results depend on the processing

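The 158 calls against KT became 156 with DESeq2's size factors, 224 with limma-voom (83 higher, 141 lower), 144 with only the 7 libraries and 160 without the 4 most abundant transcripts. They became 846 without the low-count filter (442 higher, 404 lower), which moved the median log2 change of all genes to -0.62, and 553 with DESeq2 (265 higher, 288 lower). Without KT replicates 2 and 3 together there were 3, and without these and Lkb1-deleted replicate 1, chosen after seeing the data, 4. Single libraries left out gave 13 to 240. The 30 calls against Sik-targeted libraries became 31, 23 and 32 with DESeq2's size factors, limma-voom and without the 4 transcripts, 698 without the filter and 345 with DESeq2. They became 0 with only the compared groups in the model (1270 genes at an unadjusted p under 0.05, edgeR) and 2 to 740 with single libraries left out. The cause of these changes in number was not tested.

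Replicate numbers were fitted as a block once: 49 genes passed against KT (21 higher, 28 lower) and 10 against Sik-targeted libraries. Deviations of same-numbered KT and Lkb1-deleted libraries correlated with r of 0.249, 0.129 and 0.011, and Lkb1-deleted replicate 3 correlated more with KT replicate 4 (0.075), so the numbers were not taken as pairs. Of the 158 called genes, 156 passed with DESeq2, 155 with its size factors, 134 with limma-voom, 98 with only the 7 libraries and 43 with the replicate block. No gene printed with a log2 change against KT turned its sign when any 1 of the 7 libraries was left out. For genes whose groups do not overlap this was largely fixed in advance by the lack of overlap. Depth limits genes near 0: 3 counts are less than 1 CPM in any library, and a fall to 0 is known only as a bound.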

Other observations

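A few called genes outside the lists described above belong to secretion and bone matrix. Ibsp, bone sialoprotein, had the largest fitted rise among genes called against KT (log2 change 6.41, SE 1.40, adjusted p 0.0444, edgeR), yet its groups overlapped: it stood at 0.121, 141 and 18.0 CPM in Lkb1-deleted replicates 1 to 3 and at 0.157 to 1.12 CPM in KT libraries, so that replicates 2 and 3 carried the difference. Resp18, a protein of endocrine secretory granules, had 47 counts in Lkb1-deleted libraries and 2 in KT libraries, a 37.1-fold difference with a 95% interval of 9.72 to 316 (adjusted p 0.0274, edgeR), and stood at 1.58, 2.37 and 2.02 CPM in Lkb1-deleted replicates 1 to 3. Plk2, a kinase among p53 targets, rose with 17.1, 37.6, 43.4 and 38.6 CPM in KT and 195, 122 and 58.6 CPM in Lkb1-deleted libraries (log2 change 1.87, SE 0.41, adjusted p 0.0415, edgeR), the only one of 22 tested p53 targets that passed. Ibsp and Resp18 were chosen after their values were seen.

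Against the Sik-targeted libraries the hypoxia-inducible carbonic anhydrase Car9 was lower in Lkb1-deleted libraries (0.121, 0.617 and 1.47 CPM against 19.9 to 104 CPM; log2 change -6.40, SE 0.73, adjusted p 0.00274, edgeR), and KT libraries had 1.34 to 2.97 CPM. The chromatin protein Hmga2 had 1.22, 0.617 and 1.47 CPM against 7.83 to 32.8 CPM (log2 change -4.26, SE 0.77, adjusted p 0.0321) and 0.472 to 7.71 CPM in KT libraries. Neither passed with only the compared groups in the model, where 0 genes did (1270 at an unadjusted p under 0.05, edgeR). Both genes were chosen after their values were seen, and the Sik-targeted range did not overlap with that of the Lkb1-deleted libraries in either.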
